A study of Homo sapiens with 4 samples.

Results

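The sirtuins SIRT1 to SIRT7 are the 7 human NAD+-dependent protein deacylases, and they were read here at 12 array probes in THP1 cells 2 days after transfection of a miR-511 mimic. Members were the non-control probes whose gene name in the 4 scanner files was SIRT1, SIRT2, SIRT3, SIRT4, SIRT5, SIRT6 or SIRT7, that is 7 of 27193 gene names and 12 of 34127 probes. The family was chosen by the treatment difference that earlier work on these arrays gave at its SIRT7 probes, so differences between the mimics are given as a description and without a test. THP1 is an established line of monoblastic acute myeloid leukemia that carries the MLL-AF9 fusion, and all results come from this 1 line. Cells received 30 nM of miR-511-5p mimic or of control mimic #1 once, were kept in DMEM/Ham's F12 with little serum plus albumin, and gave total RNA on day 2. Each of 2 independent experiments contributed 1 Cy3-labelled array per mimic, so that n = 2 per treatment throughout. Both treatments carry a transfection, and untransfected cells were not analysed here.

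Sirtuins use up NAD+ to take acyl groups off lysines, which ties them to the metabolic state of the cell. SIRT1, SIRT6 and SIRT7 act mainly in the nucleus, SIRT2 mainly in the cytoplasm, and SIRT3, SIRT4 and SIRT5 in mitochondria. SIRT7 is known for its work in the nucleolus, where it promotes transcription of ribosomal RNA genes, and for deacetylating histone H3 at lysine 18.

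The 2 SIRT7 probes are printed here because they adjoin on 1 transcript, and yet differed in what they read. They overlap by 5 bases, written in capitals, and together span 115 bases of chromosome 17 on the minus strand (hg19, coordinates as in the files). A_33_P3391727 lies at chr17:79870294-79870353 and is shown whole. A_23_P66813 follows at chr17:79870239-79870298, of which the first 30 bases are shown. The mature strand of the transfected miRNA, from RefSeq (GRCh38.p14, chr10:17845122-17845142), has its seed, bases 2 to 8, in capitals.
SIRT7 A_33_P3391727: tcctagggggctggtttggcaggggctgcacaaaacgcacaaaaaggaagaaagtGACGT
SIRT7 A_23_P66813: GACGTaatcacgtgctcgatgaagaacagt
hsa-miR-511-5p: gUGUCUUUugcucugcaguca
The complement of the seed, AAAGACA, was searched on the probe strand alone. It occurred in 0 of the 12 sirtuin probes and in 204 of the 22638 tested probes (0.901%). Each probe covers 60 bases, so the rest of the transcripts was not searched, and neither was the place of the probes relative to coding sequence analysed here.

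All 12 sirtuin probes were well above background on all 4 arrays, by the mark that the scanner software sets on each spot. None of their spots was marked as an outlier or saturated. A probe was tested when it had a value on every array and this mark on both arrays of either mimic, which 22638 probes passed, the 12 sirtuin probes among them. Levels are given as log2 of the processed intensity after quantile normalization between arrays, and they do not rank 1 probe against another, since probes differ in how well they hybridize. Of the tested probes, 2.20% passed an unadjusted p below 0.05 for miR-511 mimic minus control mimic (limma), and 0 passed after adjustment, where the smallest adjusted p was 0.790. The array number limits the precision of every value. Of 12 THP1 markers, LYZ and FCGR1A were not matched by name, 9 of the other 10 had a probe well above background on all 4 arrays and MEIS1 reached this on 2. Among markers of other cells, EPCAM, MS4A1 and NCAM1 were well above background on 0 arrays, CD3E on 3 and CD3D, HBB, ITGA2B and KRT18 on 4. Their part in the sirtuin values was not tested.

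**Figure D1:**
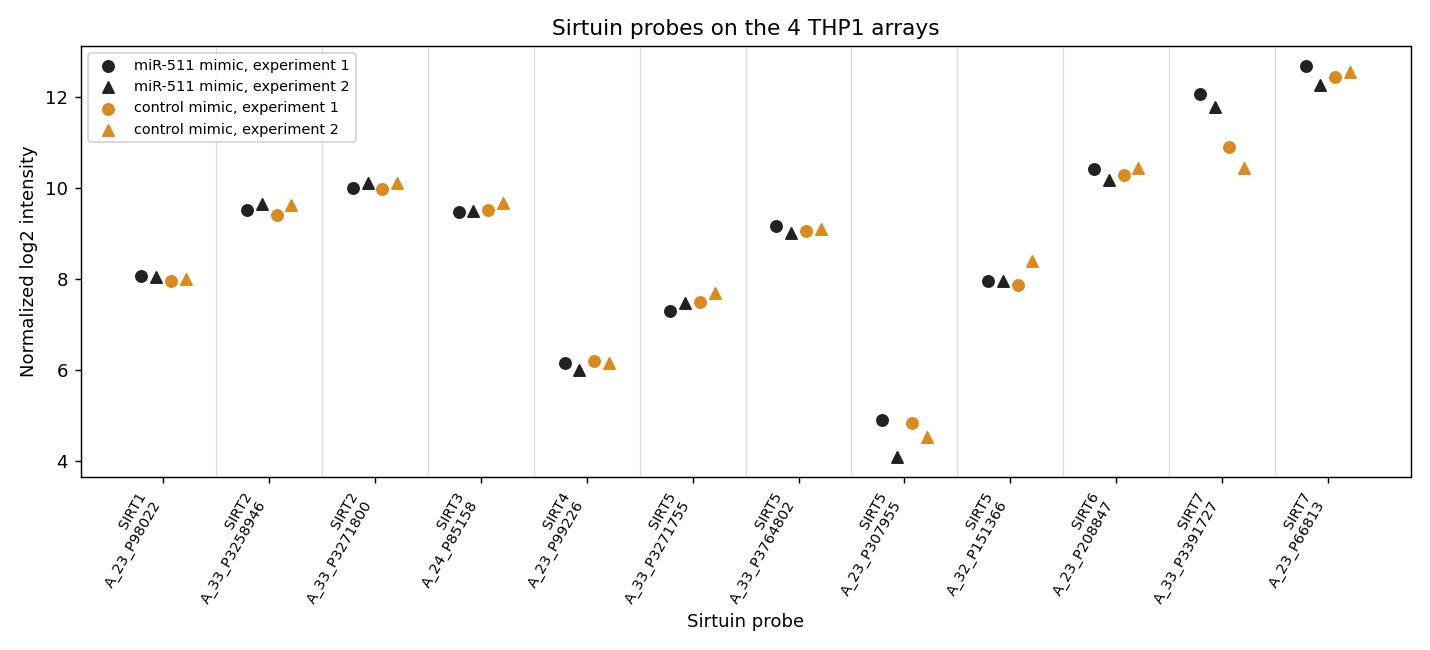
Normalized log2 intensity (vertical axis) of each of the 12 sirtuin probes (horizontal axis) on the 4 arrays, miR-511 mimic in black and control mimic in orange, circles for experiment 1 and triangles for experiment 2. The treatments stand clearly apart at SIRT7 A_33_P3391727, while levels at the other 11 probes lie close together or intermix.

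SIRT7 A_33_P3391727 was the sirtuin probe with the largest difference. Its normalized log2 intensity was 12.06 and 11.78 with miR-511 mimic in experiments 1 and 2, against 10.89 and 10.43 with control mimic. Both miR-511 arrays lay above both control arrays. The log2 difference was 1.18 in experiment 1 and 1.35 in experiment 2, that is 2.26-fold and 2.54-fold, with a mean of 1.26 (SE 0.206, n = 2 per treatment) or 2.40-fold. The arrays of 1 treatment spread by 0.20 (SD, miR-511 mimic) and 0.32 (SD, control mimic). By the size of its rise, which led to the choice of the family, the probe was number 24 of the 22638 tested. Whether the amount of SIRT7 transcript rose was not tested. In bulk RNA, more cells with a transcript and more transcript per cell cannot be told apart.

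The adjoining probe, SIRT7 A_23_P66813, read 12.68 and 12.26 with miR-511 mimic and 12.43 and 12.55 with control mimic. The treatments overlapped, and the experiments went opposite ways, by 0.26 and -0.29. The mean difference was -0.02 (SE 0.178). Set against each other within an array, A_33_P3391727 lay below A_23_P66813 by a log2 ratio of -0.62 and -0.48 on the miR-511 arrays and -1.54 and -2.11 on the control arrays. These ratios restate the unequal change of the 2 probes by which the family was chosen. Which of them follows the amount of SIRT7 transcript was not tested.

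The probe that rose was the weaker of the SIRT7 pair, but it was not dim. Its processed intensity was 3768 and 3829 with miR-511 mimic and 1970 and 1385 with control mimic. That of A_23_P66813 was 5706 and 5364 with miR-511 mimic and 5679 and 6100 with control mimic. At the sirtuin probes the local background was 20 to 30 intensity units, and the software put the error of either SIRT7 probe at 10% on each array. No sirtuin probe was given a lower error than 10%, and this value is not the spread between arrays.

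The size of the SIRT7 difference in experiment 1 moved with the stage of processing. In experiment 1 the log2 difference at A_33_P3391727 was 0.63 in mean pixel signal, 0.64 after local background was taken off, 0.94 in processed intensity and 1.18 after normalization. In experiment 2 the same 4 values were 1.45, 1.47, 1.47 and 1.35. Its processed intensity over the background-subtracted signal was 1.64 and 1.22 on the miR-511 arrays and 1.33 and 1.23 on the control arrays. For A_23_P66813 this ratio was 1.40 and 1.23 with miR-511 mimic and 1.30 and 1.22 with control mimic. The software thus raised both SIRT7 spots most on the miR-511 array of experiment 1. Without the software's detrending, a setting chosen after the data were seen, the mean difference of A_33_P3391727 was 1.11.

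**Figure D2:**
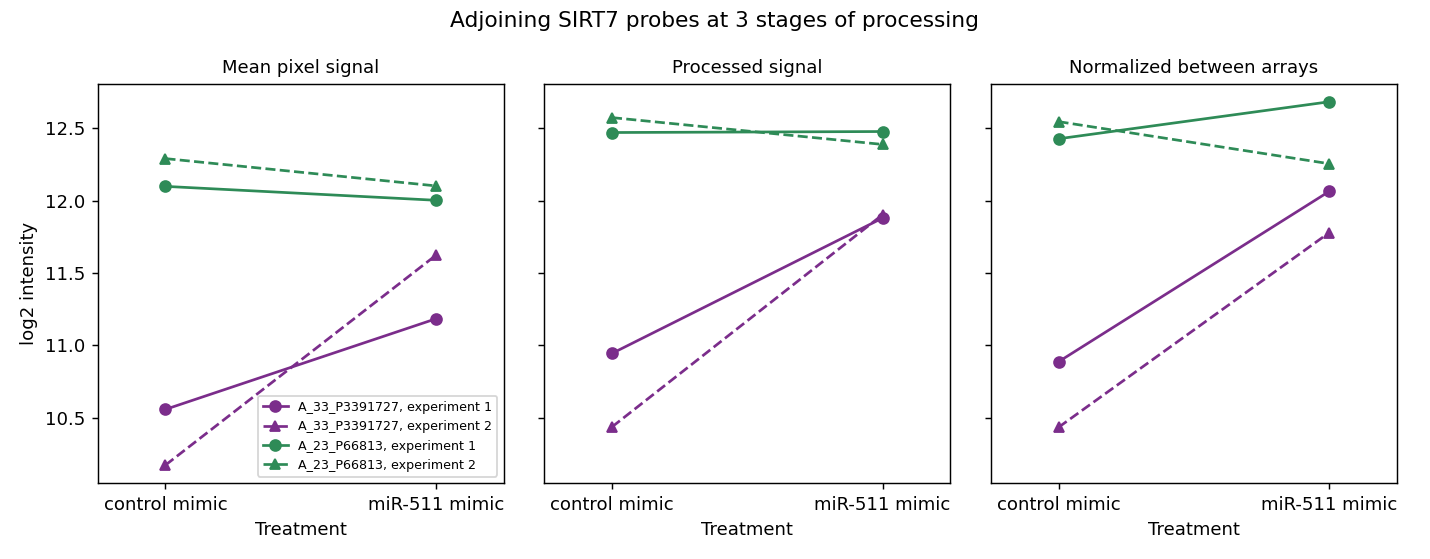
Log2 intensity (vertical axis) of the adjoining SIRT7 probes with control mimic and miR-511 mimic (horizontal axis), as mean pixel signal, processed signal and after normalization between arrays. Purple marks A_33_P3391727, green A_23_P66813, and each line joins the 2 arrays of 1 experiment. The purple lines rise in each panel, less steeply in experiment 1 before processing (0.63 in mean pixel signal). After normalization the green lines change by 0.26 in experiment 1 and by -0.29 in experiment 2.

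The spot of A_33_P3391727 lies in column 2 of 85, close to an edge of the array, and that of A_23_P66813 in column 10. The 662 tested probes printed once in columns 1 to 3 had a median log2 difference of -0.13 in experiment 1 and -0.02 in experiment 2, against 0.03 and -0.0006 for all tested probes. The 69 tested probes within 10 rows and 5 columns of the spot had medians of 0.09 and 0.0046, and their mean differences ran from -1.07 to 0.60. None of these neighbours rose as much as SIRT7 A_33_P3391727, but that probe was chosen for its rise and was number 24 of 22638. With so few tested probes above it, 69 neighbours could hardly have given another outcome. Whether the place of the spot added to the difference was not tested.

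For the whole family, 1 of 12 probes passed the unadjusted threshold upward and 0 downward, which is the SIRT7 probe that led to the choice, beside 2.20% of all tested probes in either direction. With the experiment number as a block the family count was the same, beside 3.95%. Standard errors at single probes come from the fit without the block unless stated. With it they ran from 0.077 to 0.176 and were lower except at SIRT6. The miR-511 arrays lay wholly above the control arrays at 2 of 12 probes, beside 15.6% of all tested probes, and wholly below at 3 of 12, beside 10.1%. The treatments overlapped at the other 7. In direction, 4 probes were higher in both experiments, 3 were lower in both and 5 went opposite ways. Of all tested probes, 51.0% had the same direction in both experiments. The median difference over the 12 probes was -0.04, and over all tested probes 0.0098. Apart from SIRT7 A_33_P3391727, mean differences ran from -0.21 to 0.07 and those of single experiments from -0.44 to 0.26.

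**Figure D3:**
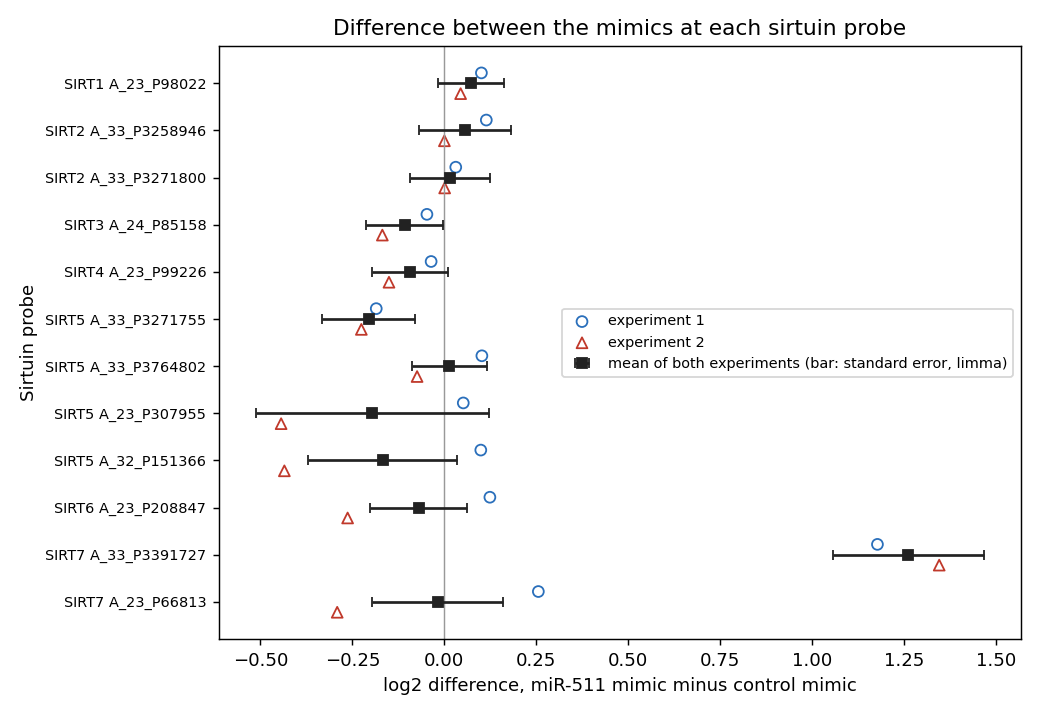
Log2 difference, miR-511 mimic minus control mimic (horizontal axis), at each sirtuin probe (vertical axis). Circles and triangles are experiments 1 and 2, squares their mean, and bars the standard error from limma. SIRT7 A_33_P3391727 stands at 1.26, and the other 11 means lie between -0.21 and 0.07.

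Among the other nuclear members, SIRT1 deacetylates p53, FOXO factors and histones. Its probe A_23_P98022 (chr10:69677560-69677619, hg19) read 8.05 and 8.03 with miR-511 mimic and 7.95 and 7.99 with control mimic. Both miR-511 arrays were above both controls, by a mean log2 difference of only 0.07 (SE 0.089), which is smaller than its standard error. SIRT6 works at telomeres and in DNA repair, and restrains glycolytic genes. At its probe A_23_P208847 (chr19:4174516-4174575) the levels were 10.41 and 10.17 with miR-511 mimic and 10.29 and 10.44 with control mimic. The treatments overlapped at SIRT6, with differences of 0.12 and -0.26 in experiments 1 and 2 and a mean of -0.07 (SE 0.131).

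SIRT2, which deacetylates tubulin in the cytoplasm, was read by 2 probes that the files assign to different transcript variants. A_33_P3258946 (variant 3, chr19:39379734-39379793) read 9.52 and 9.63 with miR-511 mimic and 9.40 and 9.63 with control mimic. A_33_P3271800 (variant 1, chr19:39370273-39370332) read 9.996 and 10.11 with miR-511 mimic and 9.97 and 10.11 with control mimic. Both probes overlapped between treatments, with mean differences of 0.06 (SE 0.125) and 0.02 (SE 0.109), and at both the 2 arrays of experiment 2 were almost equal.

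The mitochondrial deacetylase SIRT3, which acts on enzymes of oxidation and antioxidant defence, read 9.46 and 9.49 with miR-511 mimic and 9.50 and 9.66 with control mimic at A_24_P85158 (chr11:216148-216207). Both miR-511 arrays were below both controls. The mean difference was -0.11 (SE 0.104). A further probe is described as sirtuin 3 but carries the identifier ENST00000324945 in place of the symbol, so it is no member of the 12. At chr11:224067-224126, it read 7.49 and 7.50 with miR-511 mimic and 7.58 and 7.79 with control mimic. Here too the miR-511 arrays were the lower ones, with a mean difference of -0.19 (SE 0.114).

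SIRT4, which holds back glutamate dehydrogenase, read 6.15 and 6.003 with miR-511 mimic and 6.19 and 6.15 with control mimic at A_23_P99226 (chr12:120750879-120750938). The miR-511 arrays were below the controls, though experiment 1 with miR-511 mimic and experiment 2 with control mimic were all but equal. The mean difference was -0.09 (SE 0.103, or 0.084 with the experiment number as a block).

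SIRT5 removes succinyl, malonyl and glutaryl groups from mitochondrial proteins and was read by 4 probes on chromosome 6, with mean differences from -0.21 to 0.01. A_33_P3271755 (variant 2, chr6:13588636-13588695) read 7.30 and 7.47 with miR-511 mimic and 7.49 and 7.69 with control mimic. It was lower with miR-511 mimic in both experiments, by a mean of -0.21 (SE 0.127), the lowest among the 12 probes. A_33_P3764802 (variant 3, chr6:13612209-13612268) read 9.16 and 9.01 with miR-511 mimic against 9.06 and 9.09. Here the treatments overlapped, with a mean of 0.01 (SE 0.103).

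At the other 2 SIRT5 probes the experiments went opposite ways. A_32_P151366 (variant 3, chr6:13614629-13614688) read 7.96 and 7.95 with miR-511 mimic and 7.86 and 8.38 with control mimic. A_23_P307955 (variant 2, chr6:13605650-13605710) read 4.89 and 4.08 with miR-511 mimic and 4.84 and 4.52 with control mimic. At both, experiment 1 was slightly higher with miR-511 mimic (0.10 and 0.05) and experiment 2 lower (-0.43 and -0.44). The means of -0.17 (SE 0.202) and -0.20 (SE 0.317) lay within these standard errors, which come from the fit without a block. With the experiment number as a block the standard errors were 0.173 and 0.163, and the second mean lay outside its own. A_23_P307955 was the weakest sirtuin probe, with processed intensities of 18.2 to 31.2 and a software error of up to 19.1%. A_32_P151366 lies in the last column of the array and A_33_P3764802 in the one before it. Without array 1 of miR-511 mimic the difference at A_23_P307955 was -0.60, and without array 1 of control mimic that at A_32_P151366 was -0.43.

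The experiments themselves give a comparison that did not enter the choice of the family, experiment 2 minus experiment 1 over both treatments. Of all tested probes 13.6% passed the unadjusted threshold in this comparison (limma), and 1 of the 12 sirtuin probes did. This was the weak SIRT5 probe A_23_P307955, lower in experiment 2 by a log2 difference of -0.57 (SE 0.17, n = 2 arrays per experiment, adjusted p = 0.333 by limma). It did not pass after adjustment over all tested probes, nor did any other sirtuin probe, and over the whole table the smallest adjusted p was 0.215. SIRT7 A_33_P3391727 differed by -0.37 between experiments (SE 0.64, adjusted p = 0.816 by limma). That fit had no treatment term, so its standard error also holds the difference between the mimics. With treatment as a term the probe passed the unadjusted threshold. Of the 12 probes, 6 were higher in experiment 2 and 6 lower, and the sign at SIRT1 and SIRT6 turned under other processing.

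Genes around the sirtuins in the cell were read from 6 lists, each gene by its brightest probe on average. Of 89 list entries tested (88 genes, since UBTF stands in 2 lists), 0 had a probe past the unadjusted threshold in the treatment fit (limma), with or without the block, beside 2.20% and 3.95% of all tested probes. A plain equal-variance comparison of each probe, which called 3.13% of all tested probes, called 7, namely SLC25A51, KAT2B, ACADVL, MRPL10, HDAC1, HDAC3 and TAF1D, with sizes from -0.06 to 0.15. The genes given below are the 2 with the highest and the 2 with the lowest difference in each list by brightest probe. They show the range of these probes and not a change. Other probes of some genes lay outside it. PARP1, an NAD+ consumer, gave 0.06 at its brightest probe and -0.26 at another. CLOCK, a sirtuin partner, gave -0.06 and 0.22. SDHA, a mitochondrial substrate, gave -0.03 at its brightest probe and -0.17, -0.05 and 0.19 at others.

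NAD+ is the co-substrate of the sirtuins. Of its 19 synthesis and salvage genes 16 were tested, with a median log2 difference of -0.02. IDO1, which opens the kynurenine route from tryptophan, differed by -0.22 (SE 0.165), and KYNU, a later enzyme of that route, by -0.17 (SE 0.363). NADSYN1, which makes NAD+ by amidation, differed by 0.09 (SE 0.112), and KMO, also of the kynurenine route, by 0.22 (SE 0.101), while a second KMO probe gave -0.0046. NMRK1, a nicotinamide riboside kinase listed as C9orf95, differed by 0.09 at its brightest probe and by -1.54 (SE 1.03) at another, where the miR-511 array of experiment 1 alone was low, at 5.13 against 8.09 to 8.17.

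Other enzymes also consume NAD+, and 8 of 9 such genes were tested, with a median of 0.02. CD38 and BST1, ectoenzymes that cleave NAD+, differed by -0.09 (SE 0.356) and -0.07 (SE 0.184). TNKS, a tankyrase, differed by 0.06 (SE 0.089), and NUDT12, which hydrolyses NADH and NAD+, by 0.37 (SE 0.298). The NUDT12 difference was 0.77 in experiment 1 and -0.02 in experiment 2.

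Of 26 regulators and partners of sirtuins 23 were tested, with a median of -0.03. FOXO4, a transcription factor deacetylated by SIRT1, differed by -0.25 (SE 0.183), and KAT5, an acetyltransferase, by -0.24 (SE 0.161). CCAR2, an inhibitor of SIRT1 listed in the files as KIAA1967, differed by 0.06 (SE 0.131), and KAT2B, another acetyltransferase, by 0.11 (SE 0.090). Of 17 genes whose products are known substrates of the mitochondrial sirtuins 14 were tested, with a median of -0.03. ALDH2 and the protease LONP1 each differed by -0.10 (SE 0.138 and 0.154), the urea cycle enzyme CPS1 by 0.06 (SE 0.117), and cyclophilin D, encoded by PPIF, by 0.18 (SE 0.101).

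The zinc-dependent histone deacetylases also take acetyl groups off lysines but need no NAD+, and all 11 were tested, with a median of -0.0030. HDAC10 differed by -0.33 (SE 0.228) and HDAC9 by -0.27 (SE 0.120). HDAC3, the deacetylase of NCoR complexes, differed by 0.10 (SE 0.088), and HDAC11 by 0.17 (SE 0.291). The 3 HDAC11 probes gave 0.17, 0.21 and -0.20. The RNA polymerase I machinery, on which SIRT7 is known to act, had all 17 genes tested and a median of 0.01. POLR1C, a subunit shared with RNA polymerase III, differed by -0.28 (SE 0.226) at its brightest probe and by -0.72 (SE 0.490) at another. At both probes the miR-511 array of experiment 1 alone was low, at 11.29 against 11.71 to 11.97 and 10.33 against 11.68 to 11.81. Experiment 2 gave 0.12 and -0.10. RRN3, the initiation factor, differed by -0.05 (SE 0.125). TAF1D and TAF1B, subunits of the promoter selectivity factor, differed by 0.08 (SE 0.088) and 0.08 (SE 0.094).

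**Figure D4:**
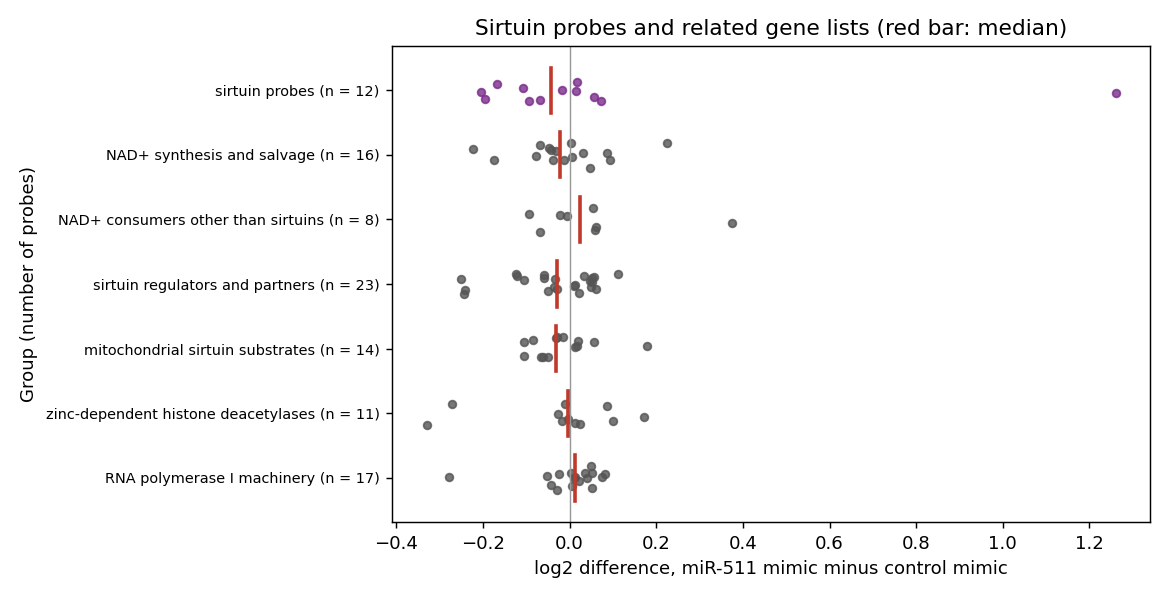
Log2 difference, miR-511 mimic minus control mimic (horizontal axis), for the 12 sirtuin probes in purple and for each tested gene of 6 related lists in grey, by its brightest probe (vertical axis: list, with its number of points). Red bars are medians; vertical scatter within a list has no meaning. List medians lie between -0.03 and 0.02, and SIRT7 A_33_P3391727 at 1.26 lies to the right of all list genes. That probe was chosen for its rise and is not the brightest of its gene, which is A_23_P66813 at -0.02.

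Among the tested probes of other genes with the most similar profile to SIRT7 A_33_P3391727 over the 4 arrays, each centred on its own mean, were those of ESR1 and MGC14436. Their root mean square distances on the log2 scale were 0.195 and 0.209. ESR1, the estrogen receptor alpha, read 6.32 and 6.16 with miR-511 mimic and 5.07 and 5.13 with control mimic. MGC14436 read 4.46 and 4.43 with miR-511 mimic and 3.86 and 3.24 with control mimic, and was well above background on 3 arrays. This likeness over 4 arrays is a description, and nothing about shared control follows from it.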

How the data were processed

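The authors hybridized Cy3-labelled RNA of 4 THP1 samples to Agilent whole genome arrays. They deposited 1 scanner file per array with spot intensity, of which the processed intensity has background taken off and spatial trends removed, and a table of log2 values. Feature Extraction is 10.7.3.1 per the file headers and 10.5.1.1 in the submitters' processing notes. Probe coordinates are hg19. The transcripts of all 12 probes matched RefSeq (GRCh38.p14) with the same symbol.

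The log2 of the processed intensity of 43118 non-control spots was taken, 232 to 301 outlier-marked spots per array were left out, arrays were quantile normalized and spots of 1 probe averaged. For probes with 10 copies on the array, over 50% of the copies had to be well above background. R 4.3.3 and limma 3.58.1 (lmFit, eBayes) compared treatments, and separately experiments, over 22638 probes at a two-sided unadjusted p below 0.05, with Benjamini-Hochberg adjustment. The study used that threshold too, with a further condition over identical replicate probes that was not applied here. The functions were tested on simulated data.

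The labels assign arrays to 2 experiments, which pair them; deviations of same-numbered arrays from their treatment means correlated at 0.271 across probes. The family and the lists were chosen with earlier results of these data known. Named genes were all sirtuin probes, any list gene with a called probe, the 2 largest rises and 2 largest falls per list among brightest probes well above background on 4 arrays, and the 3 profiles nearest to the risen SIRT7 probe; 1 of these profiles and 2 marker genes are not reported here. Further genes were named after their values were seen. These were the probes of NMRK1, POLR1C, KMO, HDAC11, PARP1, CLOCK and SDHA that disagree, and the genes called under an alternative. Alternatives were 75th percentile scaling, normexp (offset 50), other dim-probe filters, kept marked spots, the deposited log2 table, an intensity trend, a plain comparison, the block, leaving out each array and, added after the data were seen, no software detrending.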

Additional observations from a re-analysis of the deposited data

How the results depend on the processing

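The family was chosen by the difference between the mimics, so its values under other settings are a description and no support for that difference. The log2 difference of SIRT7 A_33_P3391727 was 1.07 (normexp) to 1.27 under other processing and 1.03 to 1.49 when 1 array was left out. Leaving out 1 array gave 1 to 2 sirtuin probes past the unadjusted threshold, beside 2.28% to 6.09% of all tested probes. SIRT3 ranged from -0.19 to -0.03, SIRT4 from -0.17 to -0.02 and SIRT5 A_33_P3271755 from -0.31 to -0.10. The sign of the small differences at both SIRT2 probes, 3 SIRT5 probes, SIRT6 and SIRT7 A_23_P66813 changed when some array was left out, and that of SIRT2 A_33_P3271800 also with normexp and without detrending (-0.014 each). Of all tested probes, 498 were called, against 265 with normexp, 1029 without the filter on dim probes, 285 with an intensity trend, 894 with the replicate block and 516 to 1379 without 1 array, the highest without array 2 of miR-511 mimic and 796 without array 1 of control mimic. Of the called probes 42.4% were lower, against 54.4% with 75th percentile scaling and 32.8% when all 4 arrays had to be well above background. The plain equal-variance comparison called 708, with 0 after adjustment.

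Between experiments, 3074 probes were called, and 1863 to 3221 without 1 array, the lowest without array 2 of control mimic. The sirtuin count there was 2 with treatment as a term beside the experiment (the replicate block), and 0 to 2 without 1 array. It was 0 without array 1 of either mimic, and 2 (SIRT5 A_23_P307955 and A_32_P151366) without array 2 of miR-511 mimic. SIRT2 A_33_P3271800 took the place of SIRT5 A_23_P307955 with normexp, where the latter was -0.14, and in the plain comparison. Without 1 array, SIRT7 A_33_P3391727 ranged from -1.04 to 0.30, SIRT1 from -0.044 to 0.056 and SIRT6 from -0.18 to 0.087. Leaving out 1 array leaves 1 experiment with a single mimic, so these values also hold the difference between the mimics. At SIRT7 A_33_P3391727 that difference was 1.26. SIRT1, at 0.0060, also turned to -0.017 with 75th percentile scaling, -0.012 with normexp and -0.014 without detrending, and SIRT6, at -0.04, to 0.045 with normexp and 0.047 without detrending. The other sirtuin probes kept their sign between experiments.

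In the lists, the plain comparison called 1 gene of NAD+ synthesis and salvage, 1 regulator, 2 mitochondrial substrates, 2 zinc-dependent histone deacetylases and 1 gene of RNA polymerase I. Without the filter 1 NAD+ consumer was called, ENPP1, which the software marked as well above background on 0 arrays. Leaving out 1 array called 0 to 1 genes in 5 lists: SARM1 and HDAC10 without array 1 of miR-511 mimic, HDAC11 without array 1 of control mimic, NMRK1, PARP1 and POLR1C without array 2 of miR-511 mimic, and IDO1, NUDT12 and KAT5 without array 2 of control mimic. No mitochondrial substrate was called so. The block changed no call of a list or of a sirtuin between treatments. IDO1 turned to 0.0094 with normexp and 0.014 without detrending. Without 1 array, KYNU ranged from -0.55 to 0.20, NADSYN1 from -0.0016 to 0.19, CD38 from -0.48 to 0.29, BST1 from -0.25 to 0.11, NUDT12 from -0.035 to 0.78, CCAR2 (KIAA1967) from -0.049 to 0.17, ALDH2 from -0.25 to 0.042, LONP1 from -0.29 to 0.077, CPS1 from -0.028 to 0.14, HDAC11 from -0.14 to 0.48 and RRN3 from -0.17 to 0.068, all with a change of sign. With no change of sign, IDO1 ranged from -0.42 to -0.02, FOXO4 from -0.45 to -0.05 and KAT5 from -0.44 to -0.05. The same held for HDAC10 (-0.62 to -0.04), HDAC9 (-0.39 to -0.16), POLR1C (-0.55 to -0.0085), PPIF (0.11 to 0.25) and TAF1B (0.04 to 0.13). Experiments 1 and 2 went opposite ways at IDO1 (-0.45 and 0.0049), FOXO4 (0.06 and -0.56), HDAC10 (0.04 and -0.70) and POLR1C (-0.68 and 0.12). KAT5, HDAC9, PPIF and TAF1B kept their direction in both experiments. Without detrending RRN3 was -0.18 and KYNU -0.35, and with normexp RRN3 was -0.16, KYNU -0.32, FOXO4 -0.11, HDAC9 -0.07, HDAC11 0.06, ESR1 0.48 in place of 1.14 and MGC14436 0.11 in place of 0.90. MGC14436 was no longer past the threshold under several alternatives. The cause was not tested in any of these.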
